A study of Mus musculus with 10 samples.

Results

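The COUP-TF genes are a small family of nuclear receptors, Nr2f1 (COUP-TFI), Nr2f2 (COUP-TFII) and Nr2f6 (EAR2). Their members were taken as all array probes that carry 1 of these symbols and no other, which gave 3 of 21766 probes, 2 for Nr2f1 and 1 for Nr2f6, and so 2 of 15063 named genes. No probe was named Nr2f2, so that gene is not analysed here. All 3 probes passed the filter on missing values. They were followed in tissue from the rostral and the caudal end of the mouse neocortex at E11.5, a stage when most cortical cells are still dividing progenitors.

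COUP-TFs are orphan nuclear receptors that bind DNA as dimers on repeated half-sites and act mostly as repressors. In the early cortex Nr2f1 is known for a graded expression, high caudally and laterally and low rostrally, and for setting the size of the sensory against the motor areas. Nr2f2 is known from the caudal and ventral telencephalon, the cortical hem and mesenchyme. Nr2f6 is the most divergent of these receptors and has been studied least in cortex.

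The tissue came from untreated embryos of an inbred strain, C57, and of an outbred stock, MF1, with no engineered allele named in the labels for either. A pool held the tissue of 3 embryos, taken within a litter, and cDNA amplified from its rostral and caudal RNA was set against each other on a 2-colour array, once with caudal RNA in Cy5 and once in Cy3. There were 2 pools of C57 on 4 arrays and 3 pools of MF1 on 6 arrays. The pool was the replicate, so p-values measure the spread between pools and say nothing of single embryos. These are ratios in dissected tissue, so more RNA per cell and a larger share of expressing cells cannot be told apart.

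Values are given on the log2 scale, caudal over rostral, so positive ones mean more RNA at the caudal end. Which dye is the numerator is not stated, and the ratios were read as Cy5 over Cy3. Checked on genes outside the family, this reading placed the FGF targets Spry1 and Dusp6 at -1.28 ± 0.14 and -1.07 ± 0.22 (limma SE, n = 5 pools) and Etv1 at -1.43 ± 0.22 (n = 4), each negative in every measured pool, the side on which FGF signalling is known to be high. Etv5 stood at -0.43 ± 0.15 and -0.09 ± 0.14 at its 2 probes, negative on 7 and 6 of 10 arrays. The first of them averaged -0.06 with caudal RNA in Cy5 and -0.77 with rostral RNA in Cy5. Were the numerator Cy3, all signs given here would flip. The arrays gave ratios for 13723 to 20870 probes. Their number limits the precision. Turned to the same direction, the arrays of a pool correlated over all probes at r from -0.25 to 0.03, and arrays that share a dye order at r from 0.02 to 0.44. No test of the dye was made probe by probe. Averaged over dyes, the pools correlated with each other over the tested probes at r from -0.22 to 0.21, with 0.01 for the C57 pair. The median ratio of all probes in a pool lay between -0.20 and 0.37.

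The DNA before the annotated starts of the family is shown here because Nr2f1 has more than 1 start site in the reference and its probes did not give the same ratio. Whether these stretches act as regulatory DNA was not tested. The lines hold the 250 bases before each start, from RefSeq on GRCm38.p6, minus strand, 5′ to 3′, with CpG dinucleotides in capitals. Which of these starts belongs to the transcript that either Nr2f1 probe reads was not analysed here.
Nr2f1, first start, chr13:78198874-78199123: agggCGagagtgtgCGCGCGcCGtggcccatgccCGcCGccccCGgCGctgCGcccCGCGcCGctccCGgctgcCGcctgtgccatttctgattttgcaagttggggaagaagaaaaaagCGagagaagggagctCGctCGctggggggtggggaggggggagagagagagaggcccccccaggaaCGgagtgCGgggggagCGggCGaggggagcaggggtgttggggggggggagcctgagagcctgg
Nr2f1, second start, chr13:78196450-78196699: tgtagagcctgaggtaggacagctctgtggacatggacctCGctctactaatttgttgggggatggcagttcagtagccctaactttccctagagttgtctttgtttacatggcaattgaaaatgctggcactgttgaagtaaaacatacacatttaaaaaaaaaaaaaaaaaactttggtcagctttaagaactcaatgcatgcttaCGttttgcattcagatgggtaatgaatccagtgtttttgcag
Nr2f6, chr8:71381953-71382202: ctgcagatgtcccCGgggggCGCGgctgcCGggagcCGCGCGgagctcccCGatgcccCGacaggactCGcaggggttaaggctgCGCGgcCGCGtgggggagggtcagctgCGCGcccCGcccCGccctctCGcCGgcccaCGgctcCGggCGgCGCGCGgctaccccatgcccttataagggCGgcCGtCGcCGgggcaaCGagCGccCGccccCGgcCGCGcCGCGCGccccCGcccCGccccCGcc

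The first Nr2f1 window held 22 CpG at 72% G and C, the window 2424 bases downstream 2 CpG at 39.6%, and that of Nr2f6 42 CpG at 82.4%. Over 32851 windows of the same length the medians were 6 CpG and 52.4%, so the first Nr2f1 start and the Nr2f6 start were CpG-rich and the second Nr2f1 start was not. The nuclear receptor half-site AGGTCA, read on the other strand as TGACCT, was in none of the 3 windows and in 14.02% of all windows. The ETS core CCGGAA, with the other strand read as TTCCGG, was likewise in none of them and in 12.03% of all. A missing match says only that these letters are not in these windows.

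The first question was whether the COUP-TF genes differ between the ends of the cortex in both strains. Nr2f1, probe CG_Mm_3001348_1, called the first probe below, had a ratio of 1.85 ± 0.22 (limma SE, n = 5 pools), 3.60-fold more RNA caudally. The other Nr2f1 probe, CG_Mm_EXT_3105699_1, had 0.57 ± 0.20 (n = 5), 1.48-fold. Nr2f6, probe CG_Mm_3001235_1, had -0.46 ± 0.19 (n = 4), 1.37-fold more RNA rostrally. The median of the 11855 tested probes was 0.09, so the distance to it was 1.76, 0.48 and -0.54.

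For the first Nr2f1 probe, C57 pool 1 gave 4.01 with caudal RNA in Cy5 and 2.26 with the dyes exchanged. C57 pool 2 gave 1.70 and 2.07 in the same order. MF1 pool 1 gave 1.48 and 1.19, MF1 pool 2 gave 1.12 and 1.02, and MF1 pool 3 gave 1.13 and 1.17. All 10 arrays were positive, whichever dye carried the caudal RNA.

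Only 36 of the 8924 probes measured on all 10 arrays were positive on every one (0.403%). Ranked by the lowest of its 10 values, the first Nr2f1 probe came first of these 8924 with 1.02, followed by Ttr, the thyroid hormone carrier of the choroid plexus, with 0.60 and the WNT receptor Fzd7 with 0.59. This ranking was chosen after the values were seen. Averaged over dyes, the C57 pools stood at 3.14 and 1.89, while the MF1 pools stood at 1.33, 1.07 and 1.15. All 5 were positive, as were those of 371 of the same 8924 probes (4.16%). The first probe's mean ratio over both strains was also the highest of the 11855 tested probes. By strain, its ratio ranked 1 in C57 and 166 in MF1. Over all probes the pool ratios had an SD of 0.61 and 0.43 in C57 and of 0.68, 0.87 and 0.75 in MF1. Ranks in the strains are therefore not on the same scale.

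**Figure D1:**
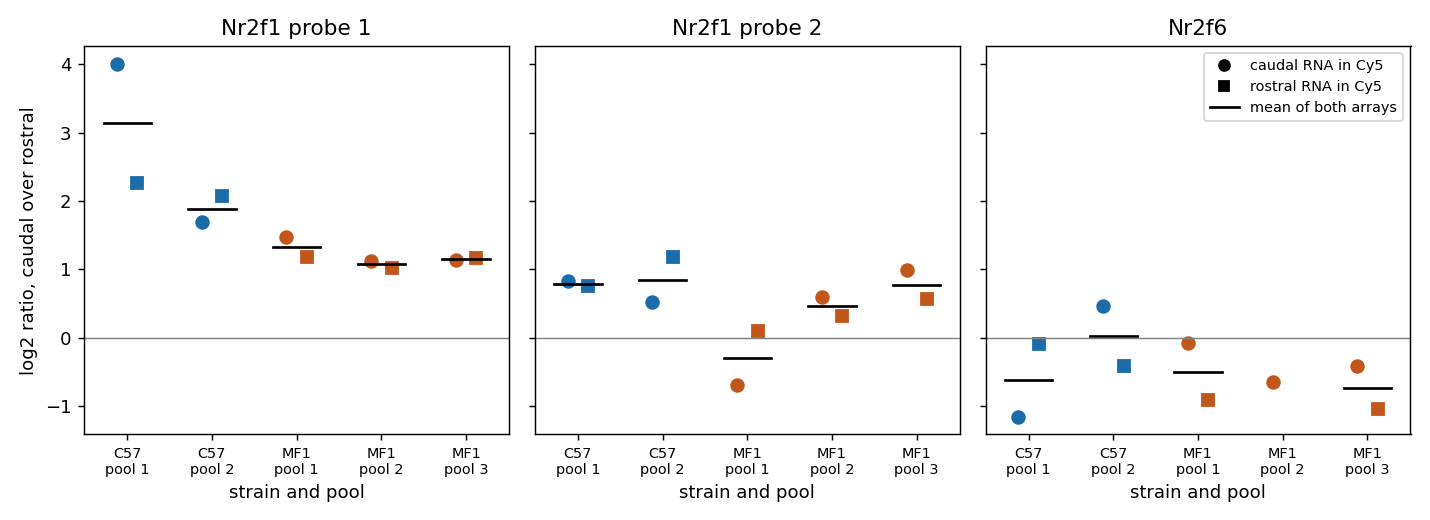
Log2 ratio of caudal over rostral RNA (vertical axis) of the 3 COUP-TF probes on every array, by strain and pool (horizontal axis; blue C57, orange MF1); circles have caudal RNA in Cy5, squares rostral RNA in Cy5, and bars are the mean of both arrays of a pool. The first Nr2f1 probe lies between 1.02 and 4.01 on all 10 arrays, the second is above 0 on 9, and Nr2f6 is below 0 on 8 of 9.

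**Figure D2:**
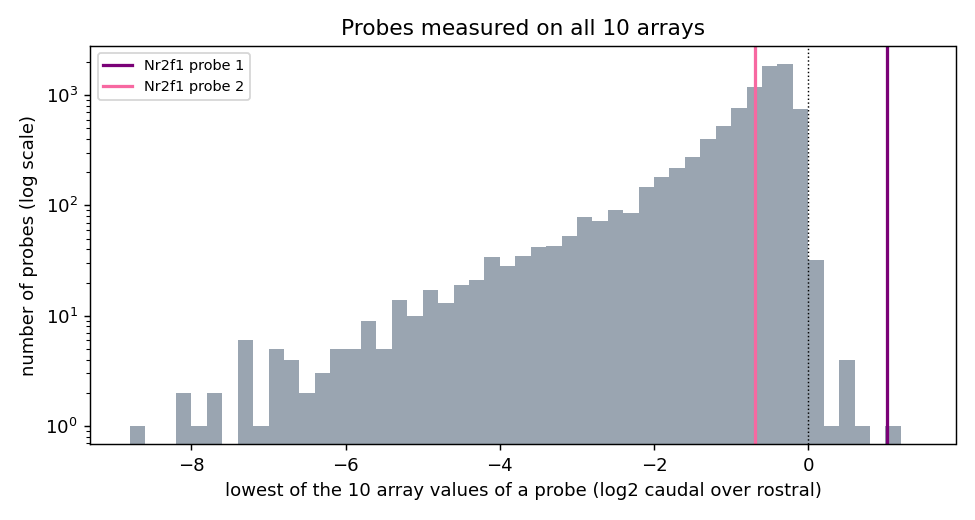
Number of probes (log scale) by the lowest of their 10 array values (log2 caudal over rostral), for the 8924 tested probes measured on all 10 arrays; lines mark the Nr2f1 probes. The first Nr2f1 probe, with a lowest value of 1.02, lies to the right of all others.

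The unadjusted limma p of the first probe was 0.00019, the fourth smallest of all probes, and its adjusted p in limma was 0.567 (Benjamini-Hochberg). By sign changes of whole pools the exact two-sided p was 0.0625, the smallest that 5 pools can give. No tested probe (0%) passed an adjusted p of 0.05 for the mean of both strains, so neither did any COUP-TF probe. At an unadjusted p under 0.05, 235 probes were positive (1.98%) and 132 negative (1.11%), and both Nr2f1 probes were among the positive ones. With each array centred on its median these counts were 270 and 272, an even split. When the 10 arrays were fitted singly with a dye term and the pool as a block, the adjusted p of the first Nr2f1 probe was 0.0741, still above the threshold.

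The second Nr2f1 probe had pool means of 0.79 and 0.85 in C57. In MF1 they were -0.30, 0.46 and 0.78. Pool 1 of MF1 was the exception to the positive sign, with -0.70 when caudal RNA was in Cy5 and 0.09 with the dyes exchanged. The limma p was 0.0316 before and 0.983 after adjustment, and the exact sign-change p was 0.125. Without MF1 pool 1 the ratio was 0.72 with an adjusted p of 0.222.

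The Nr2f1 probes therefore had unlike ratios. The first exceeded the second in every pool, by 2.35 and 1.04 in C57 and by 1.63, 0.62 and 0.37 in MF1. The mean gap was 1.20 ± 0.80 (SD, n = 5 pools), and the exact sign-change test gave p = 0.0625, adjusted to 0.125 over the 3 pairs of COUP-TF probes. Among the 407 genes with exactly 2 tested probes, the median gap between the fitted ratios was 0.19, and Nr2f1, at 1.28, had the second largest after Gabra2, a subunit of the GABA-A receptor, at 1.58. Averaging both probes gave 1.21 ± 0.17 for Nr2f1, adjusted p = 0.937 in limma.

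Nr2f6 lay on the other side of 0. C57 pool 1 gave -1.16 with caudal RNA in Cy5 and -0.09 with the dyes exchanged, and C57 pool 2 gave 0.46 and -0.41. MF1 pool 1 gave -0.08 and -0.92, and MF1 pool 3 gave -0.42 and -1.05. MF1 pool 2 had a ratio of -0.66 on the array with caudal RNA in Cy5 and none on the other, so the fit leaves this pool out. Of the 9 measured arrays 8 were negative, the exception being the C57 pool 2 array whose median over all probes was the highest of the 10.

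The Nr2f6 pool means were -0.63 and 0.03 for C57 and -0.50 and -0.73 for the measured MF1 pools. The limma p was 0.0688 before and 0.983 after adjustment. With 4 pools the exact sign-change p was 0.25, where the smallest possible is 0.125. Each array centred on its median, the ratio was -0.49 and the unadjusted limma p 0.0324, with an adjusted p of 0.98.

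Within pools, Nr2f6 lay below both Nr2f1 probes throughout. The first Nr2f1 probe exceeded it by 3.76, 1.86, 1.83 and 1.88 in C57 pools 1 and 2 and MF1 pools 1 and 3, a mean of 2.33 ± 0.95 (SD, n = 4 pools). The second exceeded it by 1.42, 0.82, 0.20 and 1.51, a mean of 0.99 ± 0.61 (SD, n = 4). Each exact sign-change p was 0.125, the smallest 4 pools allow, and 0.125 after adjustment over the 3 pairs. Such differences are free of the shift of an array, since both probes are read on it.

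Rank within an array does not depend on that shift either. It does depend on the spread of the array, whose SD over probes was 0.70 to 0.91 in C57 and 1.13 to 1.77 in MF1. Between 81.89% and 99.86% of the probes of an array had a lower ratio than the first Nr2f1 probe, the upper end in C57 and the lower in MF1 pool 3. For the second Nr2f1 probe the share ran from 11.26% in MF1 pool 1 to 96.87% in C57 pool 1, and for Nr2f6 from 9.41% to 60.73%. The C57 pool 2 array with caudal RNA in Cy5 placed the second Nr2f1 probe at 30.16%, although its ratio there was 0.52.

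**Figure D3:**
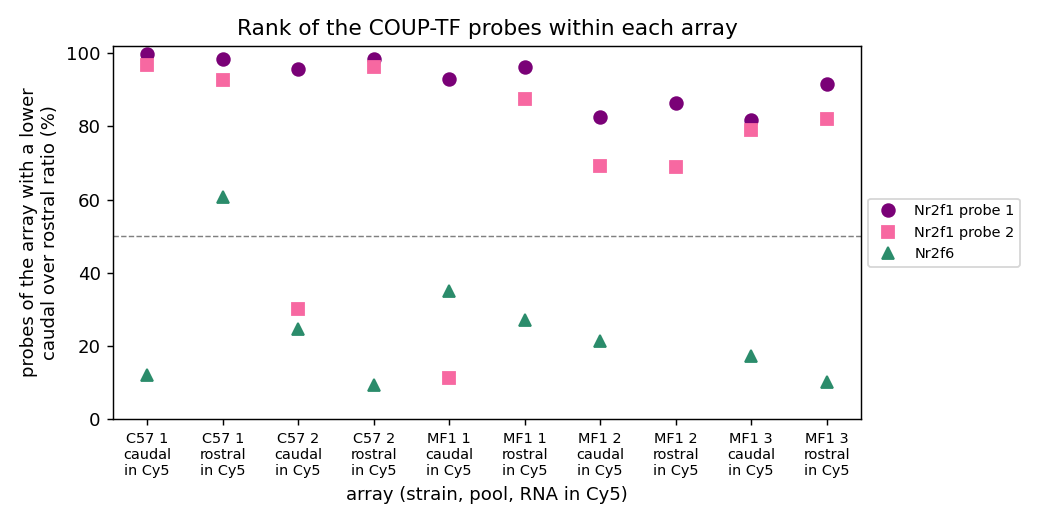
Share of the probes of an array whose caudal over rostral ratio was lower (percent, vertical axis) for the 3 COUP-TF probes on each array (horizontal axis); the dashed line marks the middle. The first Nr2f1 probe is at 81.89% or above on every array, while Nr2f6 is below the middle on 8 of its 9 arrays.

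Strain by strain, the first Nr2f1 probe in C57 had 2.51 ± 0.34 (limma SE, n = 2 pools, spread shared with MF1), 5.70-fold, the second 0.82 ± 0.31, and Nr2f6 -0.30 ± 0.28. Unadjusted limma p values were 0.00038, 0.04 and 0.329, and each adjusted p was 1. No probe (0%) passed in C57, where 171 (1.44%) were positive at an unadjusted p under 0.05, both Nr2f1 probes among them. With only the C57 pools fitted, the first Nr2f1 probe passed at an adjusted limma p of 5.0e-08, as 1 of 51 probes of 11855 that did. That fit rests on 1 residual degree of freedom and gave every probe the same variance. Without C57 pool 1 the C57 ratio of the first probe was 1.89, and of Nr2f6 0.026 in place of -0.30.

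In MF1 the first Nr2f1 probe had 1.19 ± 0.27 (limma SE, n = 3 pools), 2.27-fold, the second 0.31 ± 0.25, and Nr2f6 -0.62 ± 0.28 from 2 pools. Unadjusted limma p values were 0.00567, 0.266 and 0.079, with adjusted p values of 0.857, 0.995 and 0.995. No probe (0%) passed in MF1, and 184 (1.55%) were positive at an unadjusted p under 0.05, the first Nr2f1 probe among them and the second not. The 3 MF1 pools of the first probe were close together, with an SD of 0.13, against 0.88 for the C57 pair. For the second probe it was the reverse, with 0.55 in MF1 and 0.04 in C57. Its MF1 ratio was 0.62 without MF1 pool 1 and 0.08 without MF1 pool 3.

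Whether the ratio differs between the strains was tested as MF1 minus C57. The first Nr2f1 probe had -1.33 ± 0.43, the second -0.51 ± 0.40 and Nr2f6 -0.32 ± 0.39. Both C57 pools of the first probe were above all MF1 pools, which held for 1357 of 8924 probes (15.2%). It held narrowly for the second probe too, with 0.79 as the lower C57 pool and 0.78 as the highest MF1 pool, while the Nr2f6 pools of the strains overlapped. For the first probe the unadjusted limma p was 0.0241 and the adjusted p 0.999. Exact permutation of its strain labels gave p = 0.1, the smallest that 2 against 3 pools allow. The second probe and Nr2f6 had unadjusted limma p values of 0.253 and 0.456, and exact permutation p values of 0.2 and 0.667. No probe (0%) passed this contrast, and 158 (1.33%) were negative at an unadjusted p under 0.05. The first probe's difference was -2.41 with arrays centred and scaled (limma's adjusted p was 0.999), -0.70 without C57 pool 1, whose array with caudal RNA in Cy5 gave the 4.01, -1.95 without C57 pool 2, and -1.04 when only the arrays labelled with Cy5 at the rostral end were used. For the second probe it was -0.86 with arrays centred and scaled (limma's adjusted p again 0.999) and -0.20 without MF1 pool 1. For Nr2f6 the difference had no stable sign, at 0.033 with arrays centred and scaled and 0.00925 without C57 pool 2.

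**Figure D4:**
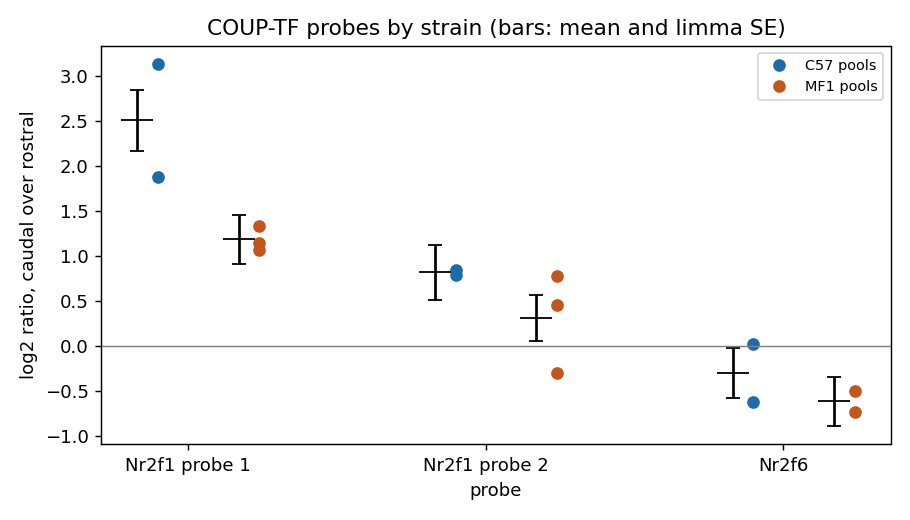
Log2 ratio of caudal over rostral RNA (vertical axis) of the 3 COUP-TF probes (horizontal axis) by strain; dots are pools, blue for C57 and orange for MF1, and horizontal marks with bars are the fitted mean and its limma SE. For the first Nr2f1 probe the C57 mean is 2.51 and the MF1 mean 1.19. Both its C57 pools lie above all MF1 pools, as for 15.2% of the probes measured in all pools.

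By root mean square difference over the 5 pools, the named probes nearest to the first Nr2f1 probe among 7530 were Ttr at 0.58, Mboat2, a lysophospholipid acyltransferase, at 0.92 and Washc3, a subunit of the WASH complex, at 0.93. Ttr had pool ratios of 2.21 and 2.13 in C57 and 0.65, 1.56 and 1.39 in MF1, so C57 pool 1 was highest for both, while the MF1 pool highest for Nr2f1, pool 1, was the lowest for Ttr. Nearest to the second Nr2f1 probe were the teneurin Tenm2 at 0.17, Tcrb-V8.2, a T cell receptor segment, at 0.17 and Ptprg, a receptor tyrosine phosphatase, at 0.18. Tenm2 was at 0.85 and 1.07 in C57 and at -0.16, 0.23 and 0.64 in MF1, also lowest in MF1 pool 1. Nr2f6 was not measured in all pools and was left out of this search.

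Relatives of the COUP-TFs are the other receptors of the NR2 group, some of which form dimers with them. Of 9 listed genes 4 were tested, with 5 probes. Of these 0 passed an adjusted p of 0.05, as did 0 of all 11855 tested probes. The median was 0.16 and the range -0.10 to 0.28. Hnf4a, a liver and gut receptor, had 0.22 ± 0.30 (n = 4 pools) and -0.10 ± 0.16. Nr2e1, the Tailless homologue of forebrain progenitors, had 0.16 ± 0.36. Among 31 other nuclear receptors 19 were tested with 20 probes, with a median of 0.05 and likewise 0 passing. Nr4a2, an orphan receptor of early neurons, had 0.62 ± 0.19 and Nr1i3, a xenobiotic receptor, -1.12 ± 0.32 (n = 4 pools), the 2 probes of that list with an unadjusted limma p under 0.05, at 0.0188 and 0.0186. Over all tested probes, 1.98% were positive and 1.11% negative at that unadjusted limma p. Each ratio named here was smaller in size than that of the first Nr2f1 probe, which had the highest ratio of all tested probes.

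Cofactors carry the repression that COUP-TFs exert. Of 16 listed, 12 were tested with 14 probes, 9 positive and 5 negative, against 69.36% positive over all probes. Their median was 0.13, and 0 had an unadjusted p under 0.05. Bcl11a, a zinc finger protein first found as a COUP-TF partner, had 0.25 ± 0.14 and 0.01 ± 0.16 at its 2 probes, and its paralogue Bcl11b -0.04 ± 0.15 and -0.04 ± 0.14. Zfpm2, a cofactor that binds Nr2f2, had 0.41 ± 0.23 (n = 4 pools). The smallest unadjusted limma p of this list was 0.125, for the first of the Bcl11a probes.

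Upstream of the COUP-TFs stand FGF signals and the transcription factors that share the patterning of the cortex with them. Of 22 such genes 13 were tested with 14 probes, 12 positive and 2 negative, against 69.36% positive over all probes. Their median stood at 0.12, with 0 of them at an unadjusted p under 0.05. Fgf8 and Fgf17, ligands that hold Nr2f1 down at the rostral end, had -0.01 ± 0.18 (n = 4 pools) and 0.13 ± 0.25. Emx2, a homeobox gene with a known caudal gradient like that of Nr2f1, had 0.10 ± 0.15, and Lhx2, a selector gene of cortex, 0.32 ± 0.15, the smallest p of the list at 0.076. Pax6, known for the opposing gradient, had 0.10 ± 0.17 (n = 4 pools) and 0.02 ± 0.14.

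Genes linked to COUP-TF function in cortex were listed from work on mutants, most of it at later stages. Of 22, 13 were tested with 14 probes, 9 positive and 5 negative against 69.36% positive over all probes. Their median was 0.10, and 0 passed an adjusted p of 0.05, as did 0 of all tested probes. At an unadjusted limma p under 0.05 there were 0 positive and 3 negative probes, where 1.98% and 1.11% of all tested probes were, for Etv1 at -1.43 ± 0.22, the cell cycle gene Ccnd1 at -0.68 ± 0.23 and Etv5 at -0.43 ± 0.15. Etv1 and Etv5 are FGF targets that also served to read the direction, so they are not separate evidence of it. Fezf2, a determinant of corticofugal neurons, had 0.39 ± 0.16, and Tbr1 and Sox5, which act in early-born neurons, 0.08 ± 0.20 and 0.01 ± 0.18.

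Retinoic acid receptors share DNA half-sites with COUP-TFs, which can oppose them. Of 15 genes of this pathway 6 were tested with 7 probes, 5 positive and 2 negative, against 69.36% positive over all probes. Their median was 0.19, and 0 had an unadjusted p under 0.05. The binding protein Crabp2 had 0.35 ± 0.20, the synthetic enzymes Aldh1a2 and Aldh1a3 0.21 ± 0.16 and 0.20 ± 0.14, and the receptor Rara -0.09 ± 0.23.

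**Figure D5:**
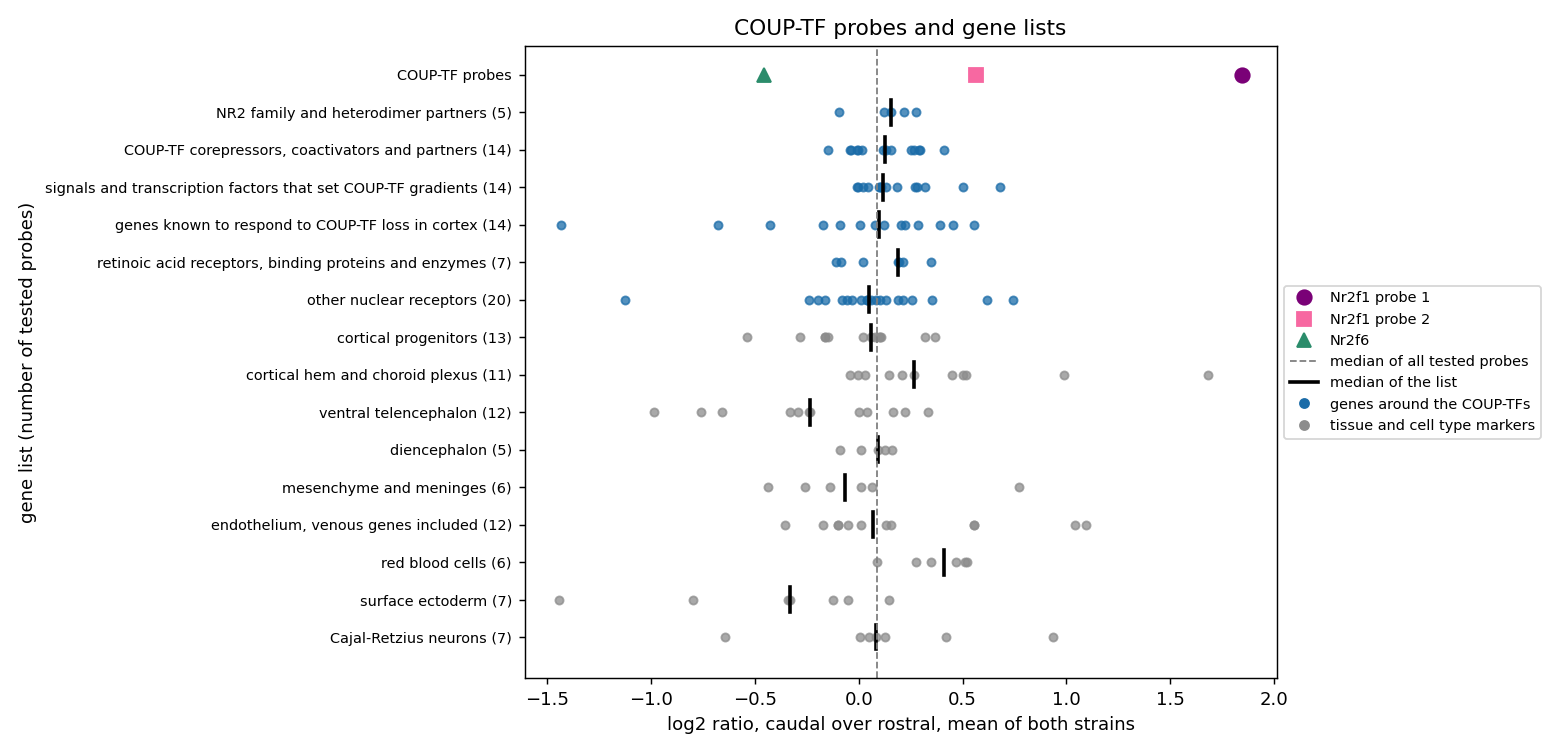
Log2 ratio of caudal over rostral RNA, mean of both strains (horizontal axis), of the 3 COUP-TF probes in the top row and of every tested probe of 15 gene lists (rows, number of probes in brackets), blue for genes around the COUP-TFs and grey for tissue and cell type markers; thick bars are list medians and the dashed line the median of all tested probes, 0.09. The first Nr2f1 probe, the highest of all tested probes, lies to the right of every listed probe, with Ttr the nearest.

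Cortical progenitors and other tissues at the edges of a cortical dissection were followed by marker lists. Against 69.36% positive over all probes, the progenitor list had 13 probes, 8 positive and 5 negative, with a median of 0.06. Among them Slc1a3, a glutamate transporter of radial glia, had -0.54 ± 0.16 and -0.15 ± 0.46 at its 2 probes. Hes5 had 0.37 ± 0.26 (n = 4 pools) and Lhx2 0.32 ± 0.15. Beside the positive Nr2f1 ratio, 9 of 11 probes for the cortical hem and choroid plexus were positive, where 69.36% of all probes were, with a median of 0.27. Ttr had 1.68 ± 0.19, the WNT enhancer Rspo3 0.99 ± 0.16 and the folate receptor Folr1 0.52 ± 0.19 (n = 4 pools). Each had an unadjusted limma p under 0.05, as did 1.98% of all probes on the positive side. By pool, the hem median stood at -0.04 and 0.57 for C57 and at 0.19, 0.40 and 0.33 for MF1, beside -0.10, 0.36, -0.18, 0.13 and 0.15 for all tested probes in the same order. Of the Nr2f1 probes, the first was highest in C57 pool 1 and lowest in MF1 pool 2, the second highest in C57 pool 2 and lowest in MF1 pool 1. Blood genes were positive in 6 of 6 probes, median 0.41, with the globins Hbb-y and Hbb-bh1 at 0.52 ± 0.15 and 0.51 ± 0.16. By pool, the blood median was 0.67 and 0.57 for C57 against -0.03, 0.15 and 0.09 for MF1. Both C57 pools were above all MF1 pools, as for 15.2% of the single probes measured in all pools. These medians still hold the shift of each pool, such as the 0.36 of all tested probes in C57 pool 2.

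Mesenchyme, in which Nr2f2 is known to be expressed, had 3 probes positive and 3 negative, where 69.36% of all tested probes were positive. Its median was -0.06, with the proteoglycan Lum at 0.77 ± 0.36. Endothelium had 7 positive and 5 negative of 12 probes and a median of 0.07. Sox18 at 1.10 ± 0.23 and Esam at 1.04 ± 0.33, each from 4 pools, were positive. The vessel genes Cdh5 at -0.10 ± 0.16, Flt1 at -0.10 ± 0.20 and Tek at -0.17 ± 0.27 (n = 4 pools) were not. Sox18 had -0.11 in C57 and 2.30 in MF1, and Esam 0.14 and 1.95. Diencephalon had 0.09 over 5 probes with Lhx9 at 0.16 ± 0.14, and Cajal-Retzius neurons 0.08 over 7 with Trp73 at 0.94 ± 0.33 and Reln, the secreted protein that defines these cells, at -0.65 ± 0.25 (n = 4 pools). On the rostral side, where Nr2f6 lay, 7 of 12 ventral telencephalon probes were negative and 5 positive, against 69.36% positive over all probes. Their median was -0.24. Dlx1, Dlx2 and Ebf1 stood at -0.99 ± 0.24, -0.76 ± 0.15 and -0.66 ± 0.20, and Dlx6, among the positive ones, at 0.22 ± 0.20. Ebf1 and Dlx6 were from 4 pools. By strain, Dlx1, Dlx2 and Ebf1 had -0.28, 0.06 and -0.52 in C57 and -1.69, -1.58 and -0.80 in MF1. Surface ectoderm had 6 of 7 negative with a median of -0.33, Krt18 at -1.45 ± 0.19 and Trp63 at -0.80 ± 0.15. The part of any of these tissues in the COUP-TF ratios was not tested.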

How the data were processed

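The deposited table holds log2 ratios of 2 channels, a unit read from the values. Per the labels' protocols RNA was extracted with Trizol and its cDNA amplified; for scanner, background correction and normalization, the labels used here give nothing. The 436 values at a shared ceiling of 16.61 were set to missing, 232 control spots left out, and each array turned to caudal over rostral from its dye labels. Each pool's dye-swapped arrays were averaged to 1 value. Testing required values in both dye orders in 2 or more pools per strain. Arrays were not centred.

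A linear model on the pool values, with a coefficient for each strain, used limma 3.58.1 (R 4.3.3), lmFit and eBayes, with Benjamini-Hochberg adjustment over 11855 probes and a threshold of 0.05, two-sided. Exact sign-change and label permutation tests over pools were added for single probes. Pool numbers only name pools and do not pair the strains. Of 21766 probes 16632 had 1 gene symbol, 139 several and 4995 none; 15952 symbols matched the RefSeq genes of GRCm38.p6 by gene identifier.

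The members and lists were chosen with earlier results of these data known. Genes named were the COUP-TF probes, the 3 nearest probes of each Nr2f1 probe, the smallest p and every unadjusted p under 0.05 of each list, and the direction genes; others were chosen after their values were seen. Alternatives covered centring, scaling, dye order, ceiling values, filter, model and left-out pools. Plots used matplotlib 3.10.9 (Python 3.11.15).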

Additional observations from a re-analysis of the deposited data

How the results depend on the processing

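For the mean of both strains, the COUP-TF probes kept their sign and stayed short of an adjusted p of 0.05 in every alternative run: 1.21 to 2.25 for the first Nr2f1 probe over 17 alternatives, 0.45 to 1.21 for the second over 17, with 1.21 the average of both probes, and -0.62 to -0.29 for Nr2f6 over 15. The only call gained was the first Nr2f1 probe in C57, at 2.51, with the C57 pools fitted alone. Nr2f6 changed sign in C57 without C57 pool 1 (-0.625 to 0.026 over the left-out pools), and its strain difference did so with arrays centred and scaled, at 0.033, and without C57 pool 2 (-0.642 to 0.00925 over the left-out pools); the cause was not tested. With the pool number as a replicate block, the strain differences of the Nr2f1 probes were -1.31 and -0.74, with adjusted p values of 0.947, and Nr2f6 could not be fitted for want of a pool; the block changed no call. Over all probes and for the mean of both strains, 1 passed with arrays centred and scaled and 1 with single arrays, a dye term and the pool as a block, neither of them a COUP-TF probe. Within strains, where 0 passed in the main analysis, 2 passed in C57 with arrays centred and scaled, 51 with the C57 pools alone, 37 in MF1 without MF1 pool 1 and 24 without MF1 pool 3. Probe brightness is not analysed here, so signal over background could not be weighed.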
